A study of Mus musculus with 12 samples.

Results

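The genes described here are 6 cytochrome P450 genes. They are Cyp2e1, whose enzyme turns toxicants into reactive products, and Cyp1a2, Cyp2a4, Cyp2a5, Cyp2a12 and Cyp2f2, which were grouped with it. Described with them are Ahr, which codes for the aryl hydrocarbon receptor, and Tiparp, a target gene of that receptor. All were chosen by name, and together they made up 8 of the 14188 genes and 11 of the 29883 transcripts of the protein-coding table. Livers of 12 mice of a CCl4-induced liver fibrosis model, 6 given PZH and 6 controls, were sequenced. The aim was to compare gene expression with and without PZH (Pien Tze Huang, a traditional Chinese medicine). The labels give the strain as C57BL/8, the methods of the study give C57BL/6J, and the mice were males, 6 weeks old at the start. Mice of both groups were injected intraperitoneally 2 times a week with 10 µl/g of a CCl4 and corn oil mixture. The PZH group was also given 0.25 mg/g of PZH into the stomach once a day, and the control group double distilled water in its place. Livers were taken in week 8, each from a separate mouse.

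P450 enzymes are haem proteins of the endoplasmic reticulum that oxidise drugs, solvents and steroids with electrons passed on by P450 reductase. CYP2E1 is the main enzyme that converts CCl4 to the trichloromethyl radical, which starts lipid peroxidation, and like CYP1A2 it is made mostly by hepatocytes around the central vein, whereas CYP2F2 is made mostly around the portal tract. The aryl hydrocarbon receptor binds planar aromatic ligands, enters the nucleus, pairs with ARNT and switches on Cyp1a1, Cyp1a2 and Tiparp, and the TIPARP protein in turn limits the receptor.

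Values are FPKM, which are scaled by transcript length and library size, and a gene value is the sum over its listed transcripts. Fold changes are PZH minus control on the log2(FPKM + 1) scale, which understates the change of genes near 0, and a gene was called at a limma adjusted p below 0.05. Of the 8 genes, 5 were called, beside 44.8% of all genes tested. The call was for a higher level in PZH mice for Cyp2e1, Cyp1a2, Cyp2a12 and Ahr, beside 12.7% of all genes, and for a lower level for Tiparp, beside 32.1%. In 3 of the 8, Cyp2e1, Cyp1a2 and Tiparp, the values of the groups did not overlap, beside 24.3% of all genes. The median log2 fold change was 0.26 over the 8 genes and -0.11 over all genes. A median-ratio scale factor per mouse moved the median of all genes to -0.001 and their calls from 1798 higher and 4560 lower to 2807 higher and 2739 lower, while 5 of the 8 genes were called under either scaling.

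**Figure D1:**
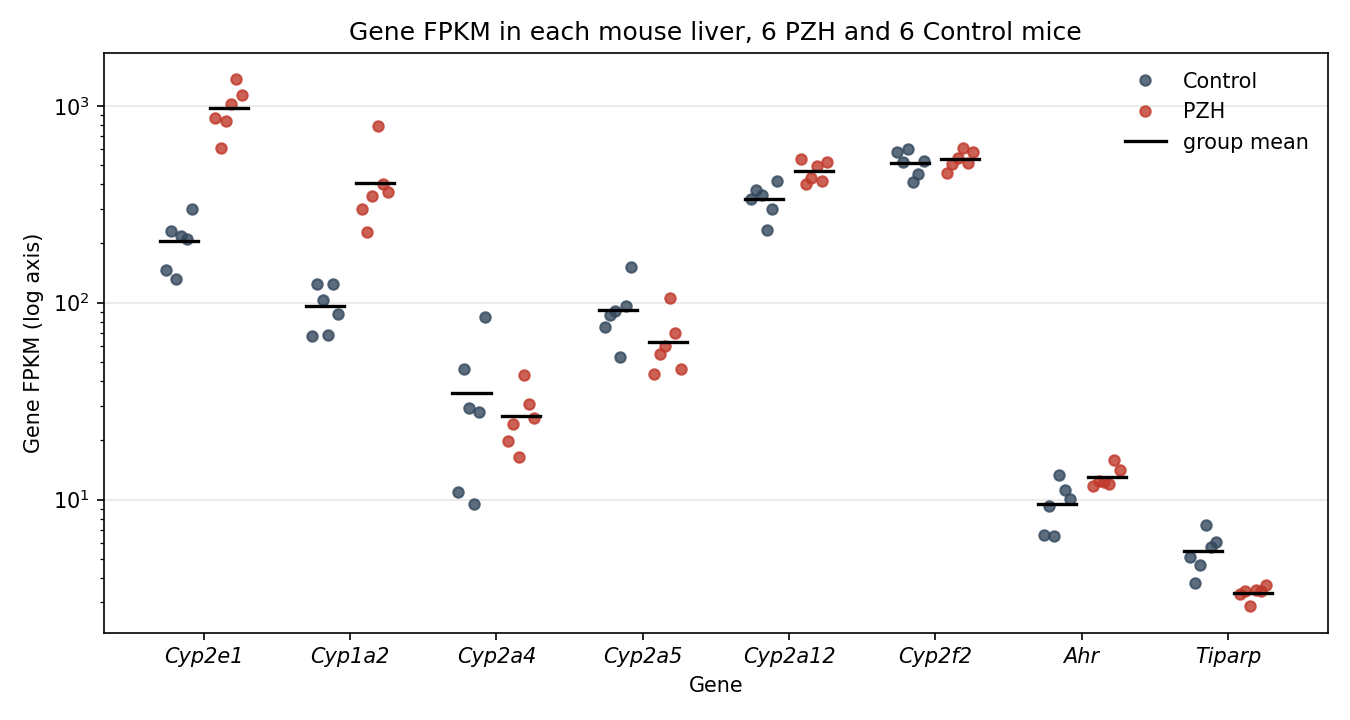
Gene FPKM on a log axis for each of the 8 genes in 6 control mice (dark) and 6 PZH mice (red), 1 point per mouse, with black lines at the group means. The points of the groups are apart for Cyp2e1 (607 to 1363 against 132 to 299 FPKM), Cyp1a2 and Tiparp, and overlap for the other 5 genes.

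Cyp2e1, on chromosome 7 (GRCm38, chr7:140763739-140774987, + strand), had a lowest value of 607, a median of 946 and a highest value of 1363 FPKM in the PZH mice, and 132, 214 and 299 FPKM in the control mice. Every PZH mouse was above every control mouse, and the lowest PZH value, in PZH mouse 2, was about double the highest control value, in control mouse 6. Means were 972 ± 263 (SD, n = 6) and 206 ± 60.4 FPKM, a ratio of 4.71. The log2 fold change was 2.24 (SE 0.22, 95% confidence interval 1.77 to 2.71, limma adjusted p = 1.74e-05). Relabelling the 12 mice in all ways gave an exact permutation p = 0.0022, the smallest value it can reach. Because the libraries are bulk liver, fewer cells of a type and less RNA per cell cannot be told apart, here or for any other gene. By mean FPKM, Cyp2e1 was in place 44 of the 14188 genes in PZH mice and in place 194 in control mice.

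All 3 annotated coding transcripts of Cyp2e1 were listed. The full-length transcript Cyp2e1-201, with 9 exons and 1833 bases, held 99.9% of the gene's FPKM and had a log2 fold change of 2.24 (limma adjusted p = 0.000118 over all transcripts). Cyp2e1-202 ran from 0.0497 to 1.84 FPKM in PZH mice and from 0.00251 to 0.0305 FPKM in control mice, at 0.0453% of the gene's FPKM. Its groups did not overlap, but at these low values it was not called (log2 fold change 0.47, limma adjusted p = 0.183), and its value was 0.27 without PZH mouse 3 and was 1.70 with a pseudocount of 0.1, not called in either. Cyp2e1-203 was listed at 0 in 8 of the 12 mice and reached 2.90 FPKM in PZH mouse 3. Counted over the 11 transcripts of the 8 genes, 4 were called at an adjusted p below 0.05, beside 19.7% of all transcripts. Of these, the call of Cyp2a12-201 (0.49) was lost with the mouse number as a block and without PZH mouse 4 (0.47), PZH mouse 6 (0.45) or control mouse 5 (0.46). By the 2-fold and unadjusted P < 0.05 criterion that the study applied to transcripts, Cyp2e1-201 and Cyp1a2-201 passed, 2 of 11, beside 3.23% of all transcripts.

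Cyp1a2, which oxidises aromatic amines and caffeine, lies on chromosome 9 (chr9:57676937-57683703, - strand) and had 1 listed transcript. Its lowest, median and highest values were 229, 356 and 791 FPKM in PZH mice and 67.8, 95.2 and 124 FPKM in control mice. The groups did not overlap, and PZH mouse 4 stood above the other 5 PZH mice, which reached 400 FPKM. Means were 405 ± 198 (SD, n = 6) and 95.9 ± 25.7 FPKM, with a log2 fold change of 2.0 (SE 0.26, 95% confidence interval 1.43 to 2.56, limma adjusted p = 8.8e-05). The ratio of Cyp1a2 over Cyp2e1 within a mouse was 0.294 to 0.77 in PZH mice and 0.294 to 0.777 in control mice. Its ranges overlapped almost fully, but PZH mouse 4 alone set the top of the PZH range, and the other PZH mice reached 0.414. Medians were 0.361 in PZH mice and 0.5 in control mice. The difference of log2 ratios was -0.24 (exact permutation p = 0.4156, also 0.4156 after adjustment over 3 ratios). It ranged from -0.43 without PZH mouse 4 to -0.10 without control mouse 3.

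Cyp2e1 and Cyp1a2 lie on different chromosomes and their coding sequences were 50.7% identical over 1661 aligned positions, gaps included. The promoter table of RefSeq (GRCm38.p6, 250 bases before to 50 after the gene start) held 7 of the 8 genes, all but Ahr. The letters TATAAA, searched on both strands in the 250 bases before the start, were present in 5 of the 7 promoters, those of Cyp2e1, Cyp1a2, Cyp2a4, Cyp2a5 and Cyp2a12, and in 12.4% of all 32851 promoters. The bases around this match are shown for the pair of genes that rose most, with TATAAA in capitals, at chr7:140763774-140763803 (+ strand) and chr9:57683671-57683700 (- strand):
Cyp2e1: tctcaacgacacgtTATAAAatccttgttt
Cyp1a2: ccagagtgggtggtgtTATAAAaggcccct
The match begins at base -31 from the RefSeq start in Cyp2e1 and at base -29 in Cyp1a2. GENCODE sets the start of Cyp2e1-201 further upstream, at 140763739 against 140763819 in RefSeq, and that of Cyp1a2-201 at 57683703 against 57683655, so these bases fall inside the first exon in GENCODE. A match of letters is a description of the sequence and not a tested site.

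Cyp2a12, a steroid hydroxylase, and Cyp2f2, which activates naphthalene, lie in the same part of chromosome 7 (chr7:27029081-27037375 and chr7:27119909-27133660, both + strand). Cyp2a12 had a lowest value of 401, a median of 462 and a highest value of 536 FPKM in PZH mice, and 234, 346 and 416 FPKM in control mice. Of the PZH mice, 5 were above every control mouse, and PZH mouse 2, at 401 FPKM, was below control mouse 6, at 416 FPKM. The log2 fold change of Cyp2a12 was 0.49 (SE 0.13, limma adjusted p = 0.00861), with means of 466 ± 57.1 and 336 ± 63.3 FPKM (SD, n = 6). Cyp2f2 ran from 458 to 607 FPKM, with a median of 527, in PZH mice and from 412 to 606 FPKM, with a median of 519, in control mice. These ranges nearly coincide. The log2 fold change of Cyp2f2 was 0.06 (95% confidence interval -0.16 to 0.28, limma adjusted p = 0.666). It was 0.25 and not called with the median-ratio scale factor, and without control mouse 4 its sign turned, at -0.00072. The transcript Cyp2f2-201 held 99.0% of the FPKM of the gene, and the other listed transcript, Cyp2f2-203, ran from 3.80 to 6.37 FPKM over all mice (log2 fold change -0.12, limma adjusted p = 0.439).

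The ratio of Cyp2e1 over Cyp2f2 sets a pericentral against a periportal P450 within a library and does not depend on the scaling between libraries. It was lowest at 1.20, had a median of 1.79 and was highest at 2.66 in the PZH mice, and was 0.218, 0.459 and 0.572 in the control mice. Cyp2e1 was thus above Cyp2f2 in every PZH mouse and below it in every control mouse. The difference of log2 ratios was 2.18 (exact permutation p = 0.0022, adjusted p = 0.0065 over 3 ratios).

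Cyp2a4, a steroid 15-alpha-hydroxylase that is higher in females, and Cyp2a5, which hydroxylates coumarin and nicotine, are near-identical copies in the same chromosome 7 cluster (chr7:26307169-26315088 and chr7:26835305-26843548, both + strand). Cyp2a4 had a lowest value of 16.4, a median of 25.1 and a highest value of 42.7 FPKM in PZH mice, and 9.51, 28.5 and 84.2 FPKM in control mice. All 6 PZH values lay inside the range of the control values, in which control mice 1 and 4 were lowest and control mouse 6 highest. The log2 fold change of Cyp2a4 was -0.06 (95% confidence interval -1.03 to 0.92, limma adjusted p = 0.932), an interval that includes changes of about 2-fold either way, and its sign turned with the median-ratio scale factor, at 0.13. Cyp2a5 ran from 43.5 to 106 FPKM, with a median of 57.6, in PZH mice and from 53.0 to 152 FPKM, with a median of 88.6, in control mice. PZH mice 1 and 6 were below every control mouse, and PZH mouse 4 was above 5 of the 6 control mice. Its log2 fold change was -0.53 (95% confidence interval -1.06 to 0.00, limma adjusted p = 0.0971) and did not pass the test. Without PZH mouse 4 it was -0.69 (limma adjusted p = 0.0265) and without control mouse 4 it was -0.67 (limma adjusted p = 0.0343), both past the threshold, with adjusted p-values of 0.0265 to 0.294 over all alternatives. Summed, the pair had a log2 fold change of -0.43 (limma adjusted p = 0.237). The ratio of Cyp2a4 over Cyp2a5 was 0.273 to 0.568 in PZH mice and 0.145 to 0.553 in control mice (difference of log2 ratios 0.47, exact permutation p = 0.1861, adjusted p = 0.2792), and this difference ranged from 0.28 without control mouse 1 to 0.64 without control mouse 6.

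The coding sequences of Cyp2a4 and Cyp2a5, 1485 bases each, differed at 23 positions (98.5% identity), and the longest stretch without a difference was 216 bases. Of all windows of 150 bases, the length of a read, 4.22% in the Cyp2a4 transcript also occurred in Cyp2a5 and 3.59% in the Cyp2a5 transcript also occurred in Cyp2a4. With any other gene counted, Cyp2a5 shared 5.79% of its windows, 108 of 1864. Cyp2a12 shared 3.72% of its windows with Cyp2a22, while Cyp2e1, Cyp1a2, Cyp2f2, Ahr and Tiparp shared none with another gene. How the authors' counting divided shared reads was not tested. The stretch of 60 coding bases within an exon that separates the copies best lies in exon 2, at coding bases 197 to 256 (chr7:26307666-26307725 and chr7:26835811-26835870, + strand, GENCODE transcripts), and is shown with the 3 differing bases in capitals:
Cyp2a4: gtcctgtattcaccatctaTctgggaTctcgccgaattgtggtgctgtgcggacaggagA
Cyp2a5: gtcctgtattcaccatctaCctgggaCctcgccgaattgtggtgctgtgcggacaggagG
The bases before the RefSeq starts of the pair were aligned with an offset of 1 and differed at 4 of 240 positions. From these, 100 bases are shown (chr7:26307053-26307152 for Cyp2a4 and chr7:26835199-26835298 for Cyp2a5, + strand), with the 3 differing bases in capitals:
Cyp2a4: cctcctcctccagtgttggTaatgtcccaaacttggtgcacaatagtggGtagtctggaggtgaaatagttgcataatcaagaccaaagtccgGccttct
Cyp2a5: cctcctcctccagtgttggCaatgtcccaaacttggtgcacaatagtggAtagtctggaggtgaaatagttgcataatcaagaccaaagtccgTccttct
The letters TTGCNNAA, a pattern bound by C/EBP factors, were found in these 2 of the 7 promoters and in 9.6% of all promoters. The D-box letters TTATGTAA were found in 0 of the 7 promoters and in 0.8% of all promoters. TTGCNNAA begins at base -70 in Cyp2a4 and -71 in Cyp2a5 and TATAAA at -28 and -29, so these matches do not overlap each other.

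Ahr, on chromosome 12 (chr12:35497974-35535038, - strand), is the receptor, and its mean FPKM was below those of the 6 P450s in both groups, though in control mouse 4 it was above Cyp2a4. It had a lowest value of 11.7, a median of 12.4 and a highest value of 15.8 FPKM in PZH mice, and 6.50, 9.66 and 13.4 FPKM in control mice. Control mouse 4, with 13.4 FPKM, was above 4 of the 6 PZH mice, and the other 5 control mice were below every PZH mouse. The log2 fold change of Ahr was 0.45 (SE 0.15, limma adjusted p = 0.0281) with means of 13.1 ± 1.58 and 9.50 ± 2.70 FPKM (SD, n = 6). This call was lost when PZH mouse 5, PZH mouse 6, control mouse 1 or control mouse 3 was left out (log2 fold changes of 0.40, 0.43, 0.37 and 0.37), with adjusted p-values of 0.00373 to 0.0603 over all alternatives. Its single listed transcript, Ahr-202, was not called in the fit over all transcripts (limma adjusted p = 0.0656), but was called with the median-ratio scale factor (0.62), with the filter at mean FPKM 1 (0.45) and without control mouse 4 (0.55).

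Tiparp, on chromosome 3 (chr3:65528410-65555518, + strand), moved the other way. Its lowest, median and highest values were 2.87, 3.42 and 3.66 FPKM in PZH mice and 3.77, 5.43 and 7.46 FPKM in control mice. Every PZH mouse was below every control mouse, by a small margin between PZH mouse 6 at 3.66 FPKM and control mouse 2 at 3.77 FPKM. The log2 fold change was -0.55 (SE 0.12, 95% confidence interval -0.80 to -0.30, limma adjusted p = 0.00207), and -0.39 with the median-ratio scale factor (limma adjusted p = 0.0149, the highest of all alternatives, with a lowest of 0.000388). The core letters to which the receptor binds, GCGTG, occurred in the promoter of Tiparp and in none of the other 6, beside 28.2% of all promoters. They are shown in capitals, as CACGC because the match is on the other strand, in 60 bases at chr3:65528257-65528316 (+ strand), from -190 to -131 from the RefSeq start:
Tiparp: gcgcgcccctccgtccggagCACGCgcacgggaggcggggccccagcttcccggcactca
Genes annotated on the opposite strand overlap Ahr, Tiparp, Cyp2a4 and Cyp2f2. The libraries were strand-specific, but whether the authors' counting used the strand is not given in the sources used here.

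Of the 15 genes listed for the receptor's pathway, 13 were in the table, and 3 were called higher, 5 lower and 5 not at all (1 to 3 higher and 4 to 5 lower over all alternatives), with a median log2 fold change of 0.00. Ahrr was not analysed here. Cyp1a1, the classical target of the receptor, was 1.80 to 3.72 FPKM in 5 PZH mice and 48.2 FPKM in PZH mouse 4, the mouse with the highest Cyp1a2, against 0.244 to 1.15 FPKM in control mice. Its groups did not overlap, and its log2 fold change was 1.73 (limma adjusted p = 0.0273), or 1.10 without PZH mouse 4. The call was lost without control mouse 1 (1.65) or control mouse 5 (1.67), with limma adjusted p-values of 0.000721 to 0.0529 over all alternatives. The chaperone genes Hsp90aa1 and Hsp90ab1, whose proteins hold the receptor in the cytosol, fell by 0.99 and 0.58 on the log2 scale (limma adjusted p = 0.00024 and 0.00138). Arnt, the partner of the receptor (log2 fold change 0.00, limma adjusted p = 0.998), and the quinone reductase gene Nqo1 (0.05, limma adjusted p = 0.859) were not called. Thus within this pathway Ahr, Cyp1a2 and Cyp1a1 were higher in PZH mice while Tiparp was lower.

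Set in order of mean FPKM, the 8 genes began in PZH mice with Cyp2e1 (972), Cyp2f2 (535), Cyp2a12 (466) and Cyp1a2 (405), whose neighbours in this order had overlapping ranges, followed by Cyp2a5, Cyp2a4, Ahr and Tiparp, each apart from the next. In control mice the order was Cyp2f2 (515), Cyp2a12 (336), Cyp2e1 (206), Cyp1a2 (95.9), Cyp2a5 (92.3), Cyp2a4, Ahr and Tiparp. There Cyp2e1 and Cyp1a2 were the only neighbours without overlap, and Cyp1a2 was above Cyp2a5 in 4 of 6 mice. The 6 P450s together held 0.724% ± 0.139 (SD, n = 6) of all protein-coding FPKM in PZH mice and 0.386% ± 0.0542 in control mice (exact permutation p = 0.0022). Of the FPKM of all P450 genes they held 26.1% ± 3.49 and 20.2% ± 1.23 (exact permutation p = 0.0065). The ranges of this share overlapped, at 20.5% to 30.2% in PZH mice and 18.6% to 22.2% in control mice. Cyp2e1 alone rose from 3.28% to 10.2% of all P450 FPKM (exact permutation p = 0.0022). Its share was 7.98% to 14.7% in PZH mice and 1.99% to 4.37% in control mice. The rise of Cyp2e1, 6.96 percentage points, was larger than the 5.89 points of the 6 P450s together. The rest of the 6 thus did not gain mean share among all P450 genes.

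The spread between mice of a group differed among the genes. Among the 6 P450s described here Cyp2f2 varied least, with a coefficient of variation of 10.3% in PZH and 14.6% in control mice, and Cyp2a4 varied most in the control group, with 80.3%. Control mouse 4 had the lowest control value of Cyp2a4 (9.51), Cyp2a5 (53.0), Cyp2a12 (234) and Cyp2f2 (412 FPKM) and the highest of Ahr (13.4) and Tiparp (7.46 FPKM). Control mouse 6 had the highest control value of Cyp2e1, Cyp2a4, Cyp2a5 and Cyp2a12, and PZH mouse 2 the lowest PZH value of Cyp2e1, Cyp1a2 and Cyp2a12. PZH mouse 4 had the highest PZH value of Cyp1a2, Cyp2a4 (42.7), Cyp2a5 (106) and Cyp2f2 (607 FPKM). As a description over the 12 mice with each group's mean subtracted, Pearson's r was 0.79 between Cyp2a4 and Cyp2a5, 0.68 between Cyp2e1 and Ahr, 0.38 between Cyp2e1 and Cyp1a2 and -0.71 between Ahr and Cyp2f2.

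By the same measure over 10948 genes with a mean of at least 1 FPKM, the genes most like Cyp2e1 were Aldh3a2 (r = 0.89), Fkbp8 (0.88), Naaladl2 (0.86), Txnl4a (0.85) and Lmbr1l (0.84). Most like Cyp1a2 were Fah (0.89) and Acsl1 (0.87), most like Cyp2a4 were Prodh2 and Dpys (both 0.87), and most like Cyp2a5 were Gsto1 (0.89) and Me1 (0.85). Cyp2a12 went most with Apoa2 (0.91) and Cyp2c37 (0.89), and Cyp2f2 with Cryl1 (0.92) and Mrps35 (0.87). Ahr went most with Rgs10 (0.91) and Kitl (0.89), and Tiparp with Hilpda and Ccp110 (both 0.93). These values are the largest of 10948 each and are given with no test.

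Among all 70 P450 genes in the table, 32 were called higher and 6 lower in PZH mice (27 to 34 higher and 3 to 7 lower over all alternatives, the 3 with the median-ratio scale factor), with a median log2 fold change of 0.31. For the 64 P450 genes other than the 6 described here the counts were 29 higher and 6 lower. Cyp2e1 and Cyp1a2 were in the third and the fourth place by log2 fold change, after Cyp7a1, the rate-limiting enzyme of bile acid synthesis (4.54, limma adjusted p = 4.63e-05), and Cyp2c55 (2.64, limma adjusted p = 1.56e-05). With a pseudocount of 0.1, Cyp1a1, at 2.57, was also above Cyp2e1 (2.24) and Cyp1a2 (2.01). The 5 most abundant P450 genes by the mean of the 12 mice, and also by that of the PZH mice, were Cyp3a11, Cyp2e1, Cyp2f2, Cyp2c29 and Cyp2a12. In control mice Cyp3a11, Cyp2f2 and Cyp2a12 held places 1 to 3 and Cyp2c29 place 8. Cyp2e1 was in place 2 of the P450 genes by mean FPKM in PZH mice, behind Cyp3a11 with 2999 FPKM, and in place 9 in control mice, and Cyp1a2 was in places 6 and 15.

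**Figure D2:**
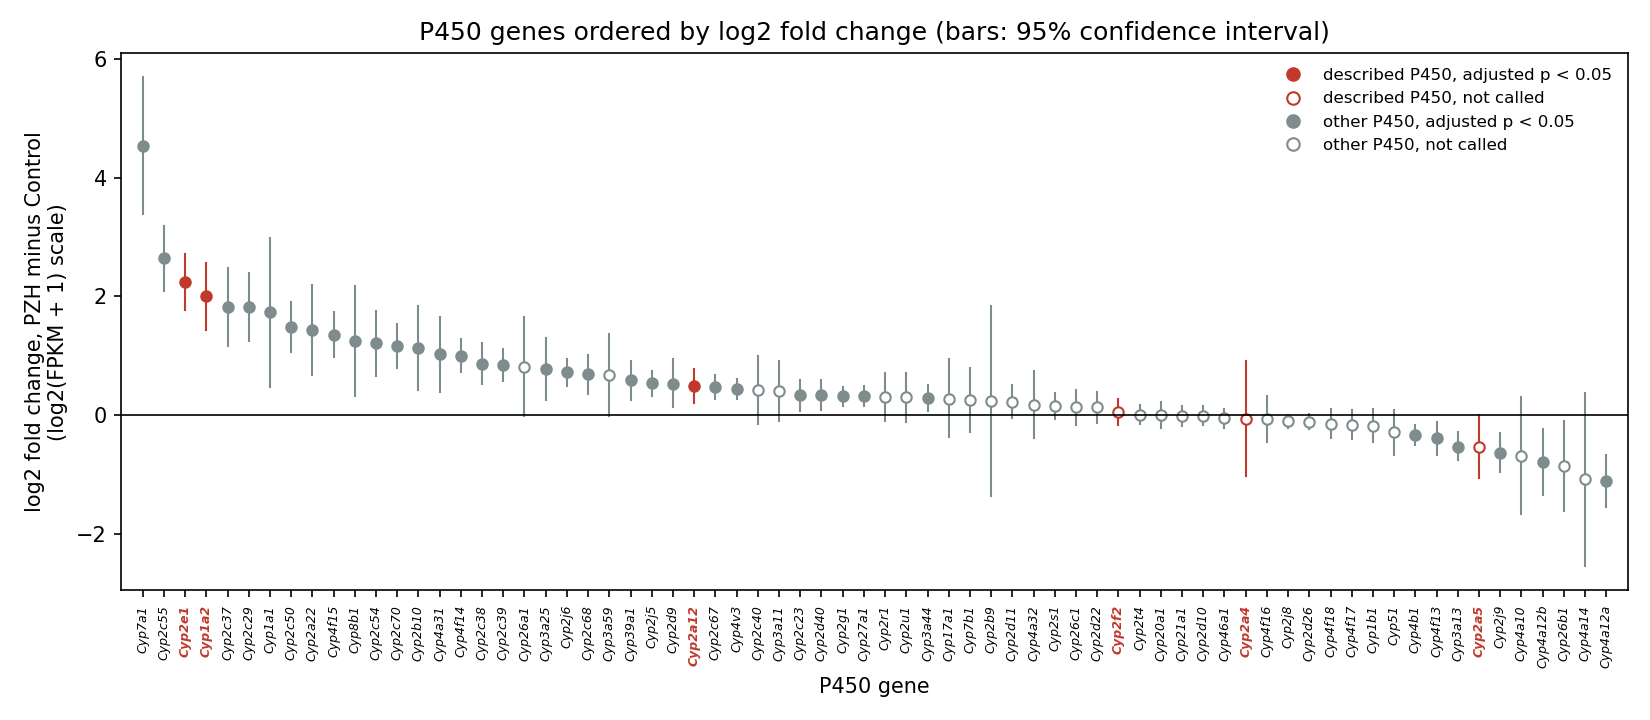
Log2 fold change (PZH minus control, log2(FPKM + 1) scale) of the 70 P450 genes in descending order, with bars for the 95% confidence interval and filled points for a limma adjusted p below 0.05. The 6 P450s described here, in red, run from 2.24 for Cyp2e1 to -0.53 for Cyp2a5; the sign of Cyp2a4 turned with the median-ratio scale factor.

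Cyp2a4, Cyp2a5, Cyp2a12 and Cyp2f2 belong to a cluster of 13 annotated Cyp2 genes on chromosome 7, of which 10 were in the table. In this cluster 4 genes were called higher and 0 lower, with a median log2 fold change of 0.20, and the 4 were Cyp2a22 (1.44), Cyp2b10 (1.14), Cyp2a12 (0.49) and Cyp2g1 (0.32). Cyp2g1 was near 0, with means of 0.296 FPKM in PZH mice and 0.0352 FPKM in control mice, and was at 1.51 with a pseudocount of 0.1. Cyp2a22 lies between Cyp2a5 and Cyp2a12. With limma 0 genes of the cluster were lower at an unadjusted p below 0.05 too, but Cyp2a5 was called lower without PZH mouse 4 (-0.69) or control mouse 4 (-0.67). With the filter at mean FPKM 1, which leaves out Cyp2g1, 3 genes were called higher.

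**Figure D3:**
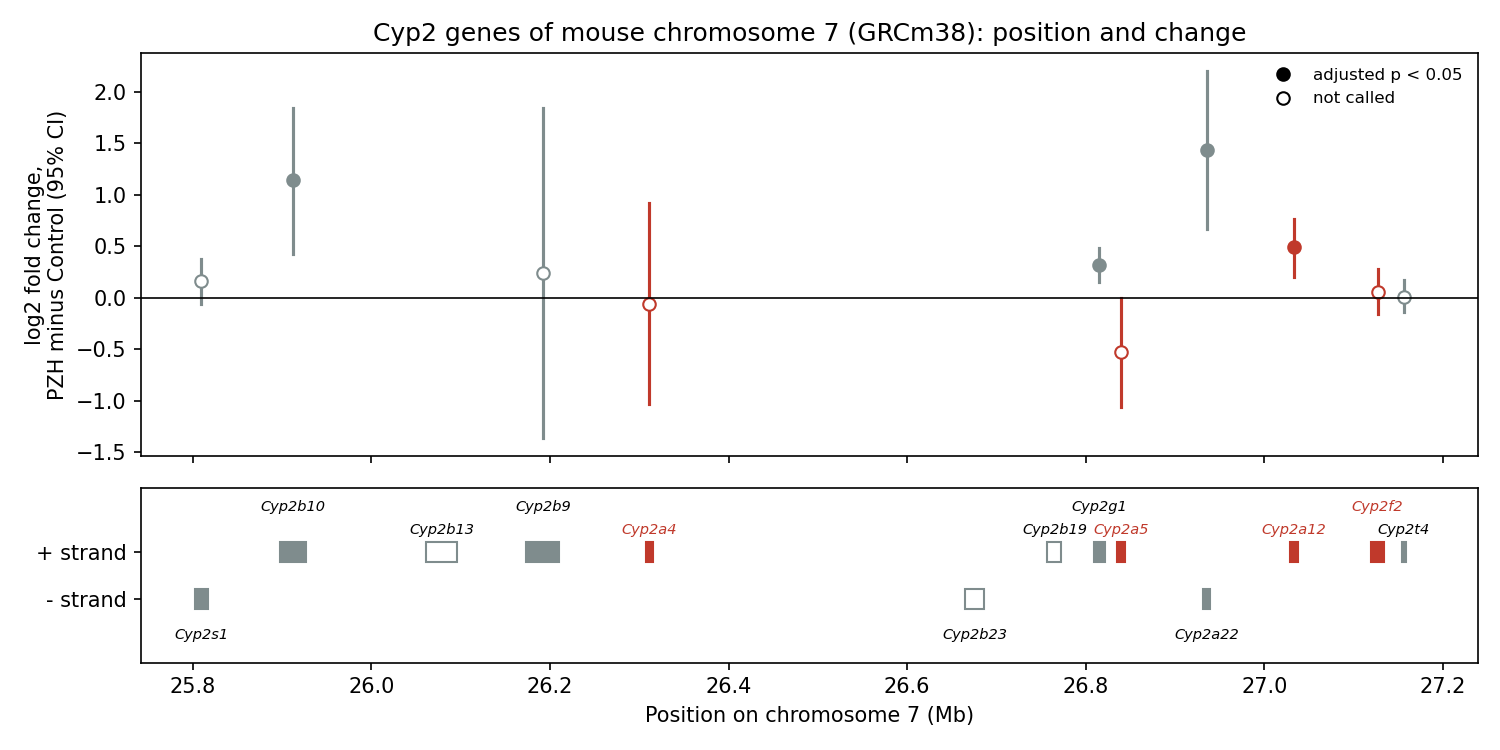
Upper panel, log2 fold change (PZH minus control) with 95% confidence interval of the 10 Cyp2 genes of the chromosome 7 cluster that were in the table, with filled points for a limma adjusted p below 0.05; lower panel, positions of all 13 annotated genes (Mb, GRCm38) by strand, with open boxes for those not analysed. Cyp2a12 (0.49) is called, and Cyp2a4, Cyp2a5 and Cyp2f2, in red with open points, are not.

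P450 enzymes need electrons and haem. Of the 14 genes listed for this supply, 5 were called higher, 1 lower and 8 not at all (4 to 7 higher and 1 to 2 lower over all alternatives), with a median log2 fold change of 0.12. Por, the P450 reductase, rose by 0.77 (limma adjusted p = 0.00269) and the cytochrome b5 gene Cyb5a by 0.50 (limma adjusted p = 0.00409), so the reductase rose less than Cyp2e1. Alas1, the first enzyme of haem synthesis, was at 0.84 (limma adjusted p = 0.0456), a call that was lost in 10 of the 12 fits that left out 1 mouse (0.62 to 1.02 over the 12) and also with the mouse number as a block, an equal sum per mouse or a pseudocount of 0.1, and Hmox1, which breaks haem down, fell by 1.07 (limma adjusted p = 0.000111).

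Of the 12 listed regulators of these P450s, 4 were called higher and 2 lower (0 to 3 lower over all alternatives, the 0 with the median-ratio scale factor), and their median log2 fold change was 0.08. Higher were the nuclear receptors Nr1i3 (1.15, limma adjusted p = 0.00278), Ppara (0.92, limma adjusted p = 0.000534) and Nr1i2 (0.74, limma adjusted p = 0.00102) and Cebpa (0.55, limma adjusted p = 0.00141). Hnf4a had a log2 fold change of -0.30 (limma adjusted p = 0.00937), or -0.11 and not called with the median-ratio scale factor. The 4 D-box factors, clock output factors that set daily rhythms of P450 genes, were all called. Dbp (2.73, limma adjusted p = 2.24e-05), Tef (1.49) and Hlf (0.72) were higher and the repressor Nfil3 was lower (-1.09). The hour at which livers were taken is not given in the sources used here, and the part of these factors in the levels of Cyp2e1 or Cyp1a2 was not tested.

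Cyp2e1 and Cyp1a2 are on the pericentral list, of which 14 of 15 genes were in the table, and 9 were called higher (8 to 10 over all alternatives) and 0 lower by limma, also 0 at an unadjusted p below 0.05, with a median log2 fold change of 0.56. After Cyp2e1 and Cyp1a2 the largest rises were those of Rgn (1.44) and Gulo (1.32), and Glul, the glutamine synthetase of the innermost cells, was not called (0.32, limma adjusted p = 0.114; called with the median-ratio scale factor at 0.50, with the mouse number as a block at 0.32 and without PZH mouse 1 at 0.45). On the periportal list of 15 genes, which holds Cyp2f2, 6 were called higher and 2 lower (6 to 8 higher and 1 to 3 lower over all alternatives), with a median of 0.26. Its largest changes were in Aldh1b1 (1.44), Ass1 (1.0), Sds (0.96) and Cdh1 (-0.93), beside 0.06 for Cyp2f2, or 0.25 with the median-ratio scale factor. Cyp2a4 is on the female-biased list, of which 6 genes were in the table, with 2 called higher (0 to 2 over all alternatives), among them Cyp3a44 at 0.29, and 0 lower by limma, also 0 at an unadjusted p below 0.05. Cyp3a44 was near 0, with means of 0.514 FPKM in PZH mice and 0.225 FPKM in control mice. Its call was lost in 7 of the 12 fits that left out 1 mouse, at 0.25 to 0.29 in those 7. On the male-biased list 3 of 8 genes were called higher (Mup20, Hsd3b5 and Cyp2d9; 1 to 4 genes over all alternatives) and 1 lower (Cyp4a12a, -1.11), and the calls of Hsd3b5 and Cyp2d9 were lost in 6 and 8 of the 12 fits, at 0.60 to 0.68 and 0.43 to 0.55 in the fits that lost them.

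Of all genes tested, 44.8% were called. Markers of hepatocytes, the cells that make these P450s, were called in both directions, and 3 were tested but not called. Of 7 such markers 6 were in the table, and 2 of them were called higher (2 to 4 over all alternatives), Alb (0.68, limma adjusted p = 0.000697) and Ttr (0.68, limma adjusted p = 0.00311), and 1 lower, Fgb (-1.17, limma adjusted p = 2.28e-05), and their summed FPKM, most of it from Alb, was 42776 to 58741 in PZH mice and 26522 to 39579 in control mice. The 3 not called were Apoa1 (0.28), Apob (0.13) and Serpina1a (0.07). With the median-ratio scale factor Apoa1 (0.47) and Apob (0.32) were called higher. Apoa1 was also called with the mouse number as a block (0.28) and without PZH mouse 4, control mouse 2 or control mouse 3 (0.34 in each). The rise of Cyp2e1 and Cyp1a2 was larger than that of Alb on the log2 scale. Of 7 stellate cell and myofibroblast markers, of which Col3a1 was the most abundant, 1 was called higher (Col3a1, 0.62) and 2 lower (Acta2, -0.92, and Des, -0.47), while with the median-ratio scale factor 3 were higher (also Col1a2, 0.59, and Lrat, 0.36) and 2 lower. Without control mouse 1 Pdgfrb was called lower as well (-0.41; also with the mouse number as a block, -0.32). The sum of these markers was 104 to 177 FPKM in PZH and 83.6 to 148 FPKM in control mice. Among macrophage markers, with Lyz2 the most abundant, 1 of 5 was called higher (Clec4f, 0.60, lost without PZH mouse 3, at 0.50) and 1 lower (Cd68, -0.32), while with the median-ratio scale factor 3 were higher (also Adgre1, 0.38, and Cd5l, 0.26) and 0 lower, with sums of 297 to 473 and 279 to 394 FPKM. Of 4 cholangiocyte markers, Sox9, the most abundant in control mice but below Krt19 in PZH mice (means of 2.73 and 2.88 FPKM), fell by 1.64 (limma adjusted p = 5.15e-06), and the sums, in which Sox9 weighs most in control mice, were 5.40 to 7.60 and 11.9 to 18.8 FPKM. The other 3 were not called: Krt7 and Krt19 were both at -0.04 (Krt19 at 0.10 with the median-ratio scale factor), and Epcam, at 0 in control mouse 3, was at 0.30 and was called higher with that scale factor, at 0.37. Of 4 endothelial markers, with Clec4g the most abundant, only Pecam1 was called (-0.29), while with the median-ratio scale factor that call was lost and Kdr was called higher instead (0.35; also without PZH mouse 1, 0.26), with sums of 64.8 to 80.7 and 64.9 to 76.8 FPKM. Markers of neutrophils (2), lymphocytes (3) and erythroid cells (2) gave 0 limma calls, also 0 at an unadjusted p below 0.05, but without PZH mouse 3, at 76.0 FPKM against 3.76 to 8.10 FPKM in the other PZH mice, S100a8 was called lower (-0.89 against -0.31). Those of club cells, kidney and pancreas were not analysed here. The part of the cell make-up in the changes of Cyp2e1, Cyp1a2 and the other genes was not tested.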

How the data were processed

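Total RNA of 12 livers, 6 of the PZH group and 6 of the control group, was depleted of ribosomal RNA and sequenced in strand-specific libraries with paired reads of 150 bases. The authors removed adaptors and low-quality reads with Trimmomatic, mapped the reads to GRCm38 with HISAT2 2.1.0 and quantified transcripts with StringTie 1.3.5 and the Ensembl release 95 annotation. The deposited values are FPKM per protein-coding transcript and mouse, and summed to 325275 to 370412 per mouse. The deposited lncRNA table was not used here. Steps between the low FPKM values implied a depth of 26.8 to 42.8 M fragments per mouse, but 2.64% to 3.34% of low values came out whole within 1%, so counts were not recovered and no count test was run.

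Transcripts were assigned to genes with GENCODE M21, which matched 29876 of 29883, and FPKM were summed per gene. The groups were compared in R 4.3.3 with limma 3.58.1 on log2(FPKM + 1), with no filter on low values and Benjamini-Hochberg adjustment over 14188 genes or 29883 transcripts; ratios and shares were compared by two-sided exact permutation tests over all labellings. The fit was tested on simulated data. Sums, ratios, sequence comparisons and plots were made in Python 3.11.15 (matplotlib 3.10.9, scipy 1.17.1, pandas 2.3.3, numpy 2.4.6). Alternatives, tried 1 at a time, were the smaller pseudocount 0.1, a filter at mean FPKM 1, a median-ratio scale factor, an equal sum per mouse, a mean-variance trend, the mouse number as a block, the most abundant transcript alone, Cyp2a4 and Cyp2a5 summed, a share without the 10 most abundant genes, and the fit without each mouse.

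The genes and lists were chosen with earlier results of these data known. The named genes are the 8 genes and their transcripts; in each list, the called genes with the 4 largest absolute log2 fold changes, with Arnt, Ahrr, Cyp1a1, Nqo1, Por, Hnf4a, Nr1i3, Dbp and Glul whatever their change; the 5 genes most like Cyp2e1 and the 2 most like each other gene; and the 5 most abundant P450 genes. Not every gene that this rule gives is reported. Apoa1, Apob, Serpina1a, Col1a2, Lrat, Pdgfrb, Adgre1, Cd5l, Krt7, Krt19, Epcam, Kdr and S100a8, from the marker lists, were named after their values were seen.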

Additional observations from a re-analysis of the deposited data

Results flagged for a closer look

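The 8 genes, the other genes of the receptor's pathway, the 3 ratios and the share of the 6 P450s were examined in each group, and the other lists were not. In 3 of these 44 groups of 6 mice, 1 mouse lay far from the others on the log2 scale, with most of the range of its group between it and its nearest neighbour. Chance gives such a gap in about 1 in 20 groups, so 3 of 44 is close to that rate. Cyp1a1 in PZH mouse 4 was 48.2 FPKM, while the other 5 PZH mice were at 1.80 to 3.72 FPKM. The log2 ratio of Cyp1a2 over Cyp2e1 in the same mouse was -0.377, while it was -1.77 to -1.27 in the other 5 PZH mice. Arnt in PZH mouse 1 was 2.74 FPKM, while the other 5 PZH mice were at 4.65 to 5.76 FPKM.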

How the results depend on the processing

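Cyp2e1, Cyp1a2, Cyp2a12 and Tiparp kept their direction and their call at gene level under every alternative run. With 1 mouse left out, their log2 fold changes ranged from 2.12 to 2.37, 1.78 to 2.14, 0.39 to 0.55 and -0.63 to -0.47, and limma adjusted p-values over all alternatives reached at most 0.000816, 0.00201, 0.0214 and 0.0149. With 1 mouse left out, Ahr ranged from 0.37 to 0.55, Cyp2a5 from -0.69 to -0.37, Cyp2a4 and its transcript from -0.33 to 0.27, Cyp2f2 from -0.00072 to 0.11 and transcript Cyp2e1-203 from -0.041 to 0.38. The median-ratio scale factor gave 0.13 for Cyp2a4, 0.12 for transcript Cyp2a4-201 and 0.033 for transcript Cyp2f2-203, against negative values without it, and 2807 genes higher, 2739 lower and 3 P450 genes lower. The cause of these shifts was not tested. No fragment counts were used, so the counting error of low values such as those of Tiparp is unknown.

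Mice with the same number in both groups did not deviate together: over the 6 pairs the correlation of their deviations was -0.078 to 0.093, and 0 of 6 numbers correlated best with the mouse of their own number. With the replicate block, Cyp2e1 was at 2.24 (adjusted p = 0.000816), 1694 genes were called higher and 4288 lower, and 5 of the 8 genes were called.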
